A study of Macaca fascicularis with 6 samples.

Results

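The genes described here encode 9 nuclear receptors of the left ventricle: the glucocorticoid receptor NR3C1, the estrogen receptor ESR1, the thyroid hormone receptors THRA and THRB, the fatty acid-sensing receptors PPARA and PPARD, their dimer partner RXRA, and the estrogen-related receptors ESRRA and ESRRG. They were chosen by name as a family of steroid, thyroid and metabolic receptors, with the signal differences between block and intact hearts already in view, and every probe set whose design name, or gene symbol where no design name was given, is one of them was included, which gave 28 of the 52706 probe sets of the array. For this reason the differences of these genes between the groups are given as values with their error, no p is given for them, and nothing is read from their counts.

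Transmural tissue of the left ventricular free wall was taken from 4 male cynomolgus monkeys that had not been operated (intact, animals 11, 12, 13 and 14) and from 2 males with chronic atrioventricular block (animals 2 and 8), all aged 4 to 6 years and of no stated genotype, and each animal's RNA was put on 1 rhesus macaque array. The block animals had lived for 8 months after ablation of the conduction system, a model in which the slow ventricular rate is followed by enlargement of the heart. They had also received repeated oral dl-sotalol, a blocker of beta-adrenoceptors and of the IKr current, and had been given vehicle and moxifloxacin in test sessions. No such doses are stated for the intact animals, so block, surgery and drugs cannot be told apart. Both were selected because they had the most frequent torsades de pointes, a polymorphic ventricular tachycardia, among the operated animals, and no other operated heart is analysed here.

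Nuclear receptors are transcription factors that a small lipophilic ligand switches on. The glucocorticoid and estrogen receptors work as pairs of themselves, whereas the thyroid hormone receptors and the peroxisome proliferator-activated receptors (PPARs) sit on DNA as partners of a retinoid X receptor. In heart muscle, thyroid hormone sets the speed of contraction and the choice of myosin, PPARA drives the burning of fatty acids, and the estrogen-related receptors, which have no known natural ligand of their own, maintain mitochondrial genes together with the coactivator PGC-1 alpha.

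Values are MAS5 signals, a measure of hybridisation brightness, brought to a common trimmed mean over the arrays. The algorithm calls each probe set Present or Absent by setting the probes that match the transcript against ones with a mismatch. A probe set that was Present on at least 2 of the 6 arrays was carried into the fit across all probe sets, which took in 22577 and is what makes a probe set "tested" below. The share Present per array was 36.0% to 39.7%, and the ratio of the 3′ to the 5′ control probe set of GAPDH, which rises as RNA becomes shorter, was 2.65, 2.17, 2.17 and 2.29 in the intact animals and 5.05 and 3.05 in animals 2 and 8 (p = 0.0667 in a 2-sided exact permutation test, the lowest value that 15 splits allow). The same ratio for ACTB overlapped between the groups (p = 0.333, exact permutation test). Of 10 cardiomyocyte marker genes 9 were found and tested, and their summed signal was 60691 to 68166 in the intact animals, 83411 in animal 2 and 66973 in animal 8. The part of RNA length or of cell composition in the differences below was not tested, and in bulk tissue fewer cells of a type and less RNA per cell cannot be told apart.

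Of the 28 probe sets 17 could be tested and 9 were Absent on every array. The 17 include 1 probe set that carries the NR3C1 symbol but aligns to another chromosome and is described apart. The remaining 16 belong to 8 genes, and PPARD had none. Both block arrays lay below all intact arrays in 4 of the 16 (2 of PPARA and both of ESRRG) and above them in 0, beside 9.46% and 8.62% of all tested probe sets. The difference of mean log2 signals, block minus intact, was below 0 for 13 of the 16 and above 0 for 3 (14 and 2 without intact animal 14), whereas 50.3% of all tested probe sets were below 0. Its median was -0.39 over the 16 and -0.0028 over all tested probe sets. Over the brightest tested probe set of each of the 8 genes, the median was -0.27 and the range -0.56 to 0.06, or 0.676-fold to 1.05-fold. Several probe sets measure the same gene in the same 6 animals, so these counts are not counts of separate events. The genes were chosen with these differences known, so nothing is read from the contrast with all tested probe sets.

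**Figure D1:**
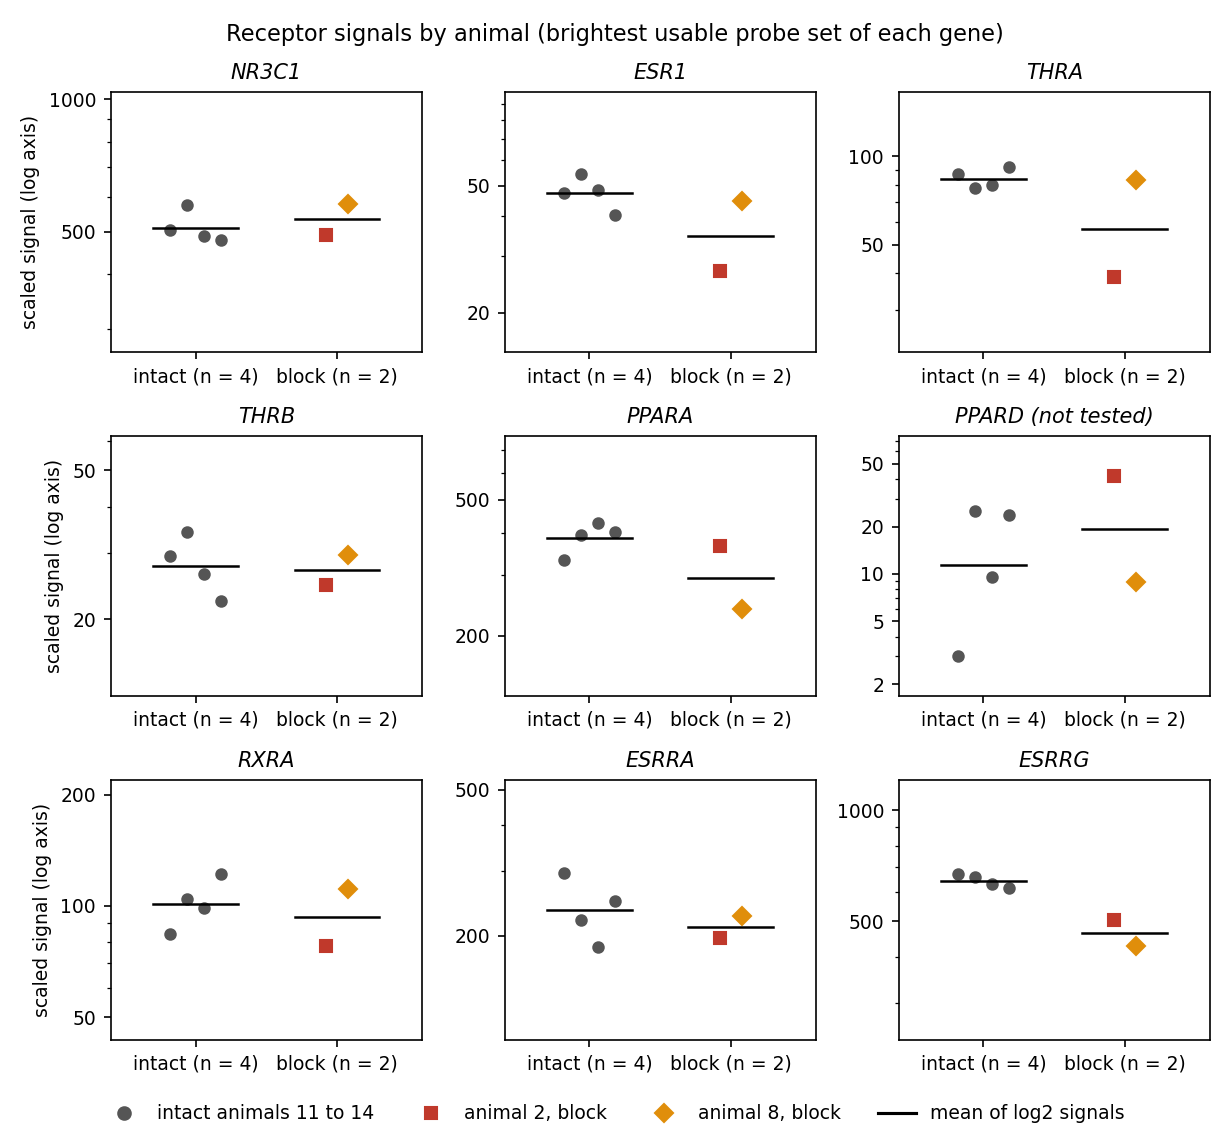
Scaled signal (log axis) of the brightest usable probe set of each receptor gene in the 4 intact animals (circles) and in block animals 2 (square) and 8 (diamond), with a line at the mean of the log2 signals of each group; PPARD had no probe set that could be tested. Only for ESRRG do both block animals lie below every intact animal, at 503 and 429 against 615 to 672.

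The clearest separation in the family was that of ESRRG, an orphan receptor of oxidative muscle that drives genes of mitochondrial energy supply. Its brighter probe set (MmugDNA.39131.1.S1_at, chromosome 1, 153924712 to 153925291, plus strand of the rhesus assembly Mmul_051212, to which all positions refer) gave signals of 672, 661, 632 and 615 in intact hearts 11 to 14, in that order, which is kept below, and of 503 and 429 in block hearts 2 and 8. All 4 intact hearts lay within a narrow band, and both block hearts lay under it. The means were 645 ± 26.3 (SD, n = 4) and 466 ± 52.2 (n = 2), a fold of 0.721 on the scale of mean log2 signals and a log2 difference of -0.47 with a standard error of 0.15 from the fit over all probe sets.

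The second ESRRG probe set lies 5′ of the first, at 153922491 to 153923213. It read 456, 384, 530 and 457 in the intact animals and 286 and 246 in animals 2 and 8. Again neither block heart reached the lowest intact heart. The fold was 0.585 and the log2 difference -0.77 with a standard error of 0.18. The difference of the first probe set stayed between -0.59 and -0.36 when any animal was left out, so both block animals carried it.

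ESRRA, the relative of ESRRG that is named for the same mitochondrial program, did not separate. Its only probe set read 296, 220, 187 and 249 in the intact animals and 196 and 226 in animals 2 and 8, so both block hearts lay inside the intact range. The fold was 0.898 and the log2 difference -0.16 with a standard error of 0.22. The probe set aligns to 2 places, chromosome 17 from 1857058 to 1857620 (identity 99.47%) and chromosome 14 from 10111007 to 10111569 (95.04%). The transcripts of these copies cannot be told apart, so the values may not be those of ESRRA alone. Within each array, the log2 ratio of ESRRG to ESRRA, centred on the intact mean, was -0.27, 0.13, 0.30 and -0.15 in the intact animals and -0.10 and -0.53 in animals 2 and 8, and so overlapped.

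PPARA, the receptor that turns on fatty acid uptake and oxidation, was covered by 7 probe sets on chromosome 10, of which 6 could be tested. The brightest (MmugDNA.27801.1.S1_at, 90251028 to 90251610, plus strand) read 334, 393, 428 and 402 in the intact animals, 366 in animal 2 and 239 in animal 8. Animal 2 lay within the intact range and animal 8 below it. The means were 389 ± 39.7 (SD, n = 4) and 302 ± 89.4 (n = 2), a fold of 0.763 and a log2 difference of -0.39 with a standard error of 0.21. Without animal 8 the difference was -0.08, and without animal 2 it was -0.70.

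Of the other PPARA probe sets, the one that spans the annotated end of the Ensembl transcript (90244820 to 90245299) read 222, 291, 363 and 363 in the intact animals and 222 and 182 in animals 2 and 8. Here both block hearts were under every intact heart, but animal 2 only by a margin of less than 1 signal unit (221.8 against 222.5). The fold was 0.661. A second probe set that separated the groups read 204, 185, 256 and 217 against 148 and 178, a fold of 0.760, and overlaps an Ensembl transcript that the annotation calls a pseudogene.

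All 6 were lower in the mean of the block animals, with folds from 0.661 to 0.834 and a median of 0.738. Animal 8 was below every intact animal in 6 of 6 probe sets and animal 2 in 2 of 6. Against the intact mean of log2 signals, animal 8 stood at a median of 0.608 times (0.552 to 0.835) and animal 2 at 0.850 times (0.692 to 0.945). The 6 probe sets begin between 270 bases before the annotated transcript end and 7744 bases past it, the last of them ending at 8309 bases. They cover 1 gene in the same RNA and are not separate replicates, and 1 of them (fold 0.676) has an alignment of 53.2% in the annotation. Whether the fold depends on position was not tested. The remaining probe set, which lies upstream of that end, was Absent on every array. It read 3.14, 9.03, 4.15 and 3.52 in the intact animals and 14.5 and 16.2 in animals 2 and 8. These higher readings in the block hearts are not above background.

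**Figure D2:**
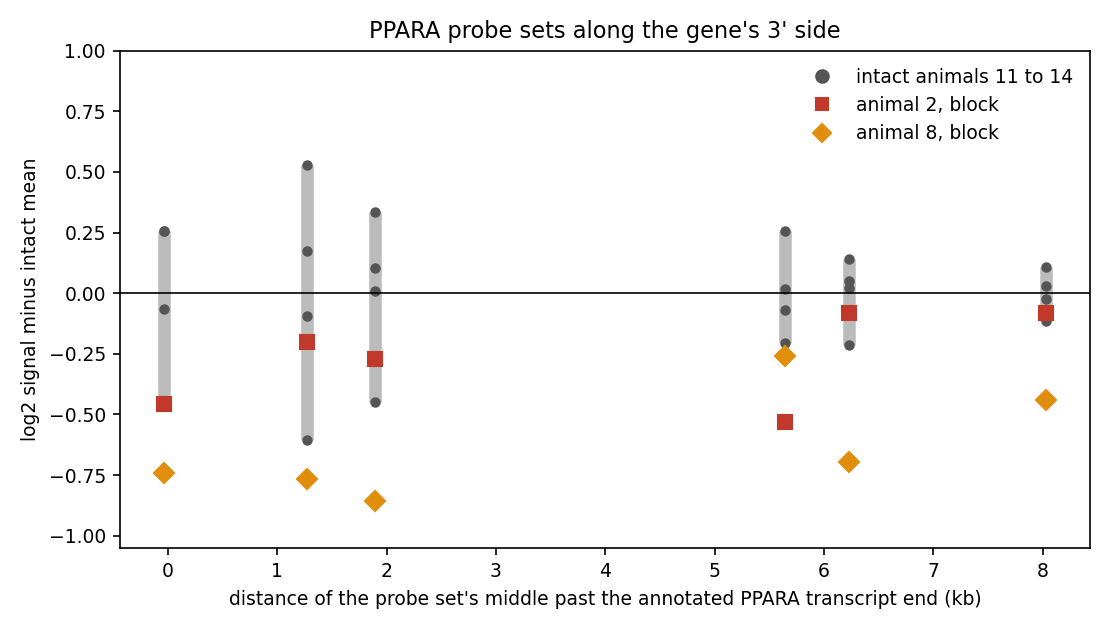
Log2 scaled signal minus the intact mean of the same probe set (vertical axis) for the 6 tested PPARA probe sets, placed by the distance of their middle past the annotated transcript end in kb (horizontal axis); grey bars span the 4 intact animals. Animal 8 (diamonds) lies below the intact range in 6 of 6 and animal 2 (squares) in 2 of 6.

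PPARD, the form of the receptor found in most tissues, could not be tested. One of its 2 probe sets was Present on 1 array, that of animal 2, and read 3.01, 25.1, 9.52 and 23.6 in the intact animals and 41.8 and 8.90 in animals 2 and 8. The other was Absent throughout, at 14.6, 10.6, 15.2 and 13.8 against 20.6 and 22.6. Apart from the reading of 41.8 in animal 2, these signals are not above background, and they give no level of PPARD.

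RXRA, 1 of the retinoid X receptors that partner PPARs and thyroid hormone receptors on DNA, was Present in all animals on 1 of its 2 probe sets (MmuSTS.3795.1.S1_at, chromosome 15, 3855025 to 3855774, minus strand). It read 84.0, 104, 98.8 and 122 in the intact animals and 77.9 and 111 in animals 2 and 8. Animal 2 was the lowest of the 6 and animal 8 was second highest, so the groups overlapped. The fold was 0.917 and the log2 difference -0.12 with a standard error of 0.24. The sign of this difference turned without animal 2, at 0.13. The second probe set was Absent in all 6 and read 29.0, 27.6, 42.0 and 27.0 against 54.6 and 66.4, so the higher readings in the block hearts are not above background.

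Of the thyroid hormone receptors, THRA is the main form of heart muscle and is tied to heart rate. Its tested probe set (MmuSTS.4591.1.S1_at, chromosome 16, 50197826 to 50198548, plus strand, within the last kilobase of the annotated transcript, with an alignment of 63.5% in the annotation) read 87.2, 77.9, 79.6 and 91.9 in the intact animals, 38.8 in animal 2 and 83.1 in animal 8. The value of animal 2 was 0.462 times the intact mean, while that of animal 8 was 0.990 times it and inside the intact range. It was called Present on 1 intact and 1 block array only. The fold of 0.676 (log2 difference -0.56, standard error 0.30) therefore rested on animal 2, and the difference was -0.01 without it and -1.11 without animal 8. Another THRA probe set was Absent on all arrays, as was one labelled with both THRA and NR1D1, which is not counted as a member.

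THRB, the second thyroid hormone receptor, was dim but Present on all arrays (MmuSTS.2880.1.S1_at, chromosome 2, 166578464 to 166578852, minus strand). It read 29.5, 34.3, 26.4 and 22.5 in the intact animals and 24.8 and 29.6 in animals 2 and 8. The block hearts fell in the middle of the intact range. The fold was 0.973 and the log2 difference -0.04 with a standard error of 0.31.

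The glucocorticoid receptor NR3C1, which cortisol activates, was read by 4 probe sets on chromosome 6. The brightest (MmugDNA.19573.1.S1_at, 139714703 to 139715275, minus strand) read 503, 574, 489 and 477 in the intact animals and 491 and 577 in animals 2 and 8. Animal 2 stood among the lower intact hearts and animal 8 just above the highest. The means were 511 ± 43.5 (SD, n = 4) and 534 ± 60.8 (n = 2), a fold of 1.05 and a log2 difference of 0.06 with a standard error of 0.16.

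The probe set 1657 bases further 5′ read 40.2, 55.3, 60.6 and 40.3 against 67.1 and 56.3, a fold of 1.27. Animal 2 was the highest of the 6, while animal 8 lay within the intact range. The next, 3220 bases further 5′, read 20.3, 25.4, 19.9 and 2.20 against 12.8 and 11.8, a log2 difference of 0.01 with a standard error of 0.94. The lowest value was that of intact animal 14, and without this animal the difference was -0.82 (standard error 0.39) with both block hearts below the other intact hearts. The most 5′ one was Absent on every array.

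Another probe set bears the NR3C1 symbol only through its UniGene cluster and aligns to chromosome 7, from 132592811 to 132593448. It read 26.7, 45.6, 56.7 and 50.5 in the intact animals and 28.6 and 22.1 in animals 2 and 8, a fold of 0.581. Animal 11 overlapped with the block hearts. Of 733 probe sets with both a UniGene symbol and a design name, the symbol equalled the name in 7, so whether this one measures the receptor is not known.

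ESR1, the estrogen receptor alpha, had 6 probe sets on chromosome 4 and 1 that could be tested (MmuSTS.1998.1.S1_at, 110979534 to 110980242, minus strand, 3586 to 4294 bases past the annotated transcript end). It read 47.4, 54.5, 48.5 and 40.5 in the intact animals, 27.0 in animal 2 and 44.8 in animal 8. Animal 2 was the lowest of the 6, whereas animal 8 lay within the intact range, and animal 2 had no Present call. The fold was 0.733 and the log2 difference -0.45 with a standard error of 0.29, or -0.08 without animal 2. Of the other probe sets, 4 were Absent in all animals and 1 was Present in 1 intact animal.

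**Figure D3:**
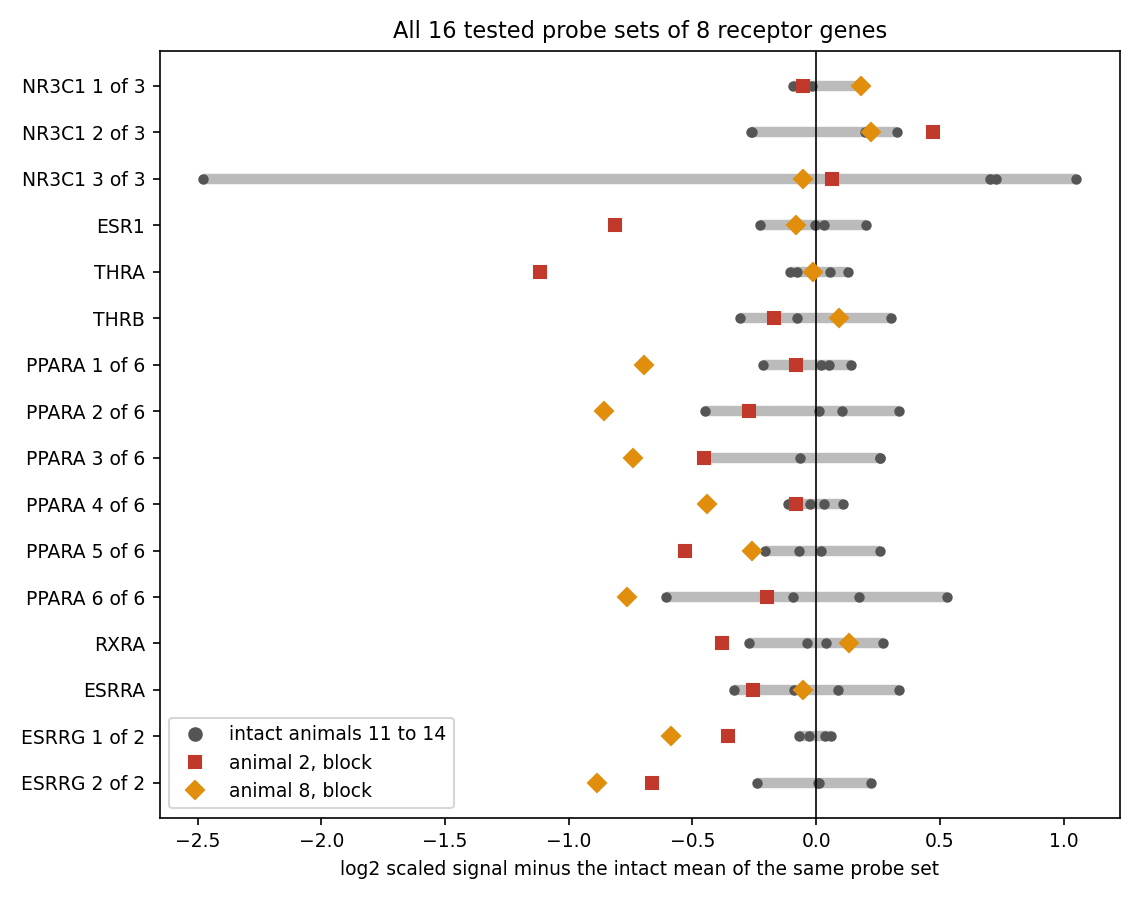
Log2 scaled signal minus the intact mean of the same probe set for all 16 tested probe sets of the 8 receptor genes, from brightest to dimmest within a gene; grey bars span the 4 intact animals (circles). Animal 2 (squares) lies far below the intact animals for ESR1 and THRA, both animals lie below them for ESRRG, and animal 8 (diamonds) lies below them in all 6 PPARA probe sets, by little in those marked 5 of 6 and 6 of 6.

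For the main probe sets of THRA, ESR1, RXRA and PPARA, 1 block heart lay below the intact range and the other within it. How often this occurs among all tested probe sets was not counted, so nothing is read from it. Animal 2 was the low one for THRA, ESR1 and RXRA, with animal 8 at or near the intact mean. The array of animal 2 was the dimmest before scaling, with a trimmed mean of 54.1 against 72.9 to 87.4 on the others. On it the THRA and ESR1 probe sets were called Absent. The part of this weaker array in these low values was not tested. Animal 8 was the low one for the brightest PPARA probe set and the lower of both in all tested PPARA probe sets except the one that overlaps the pseudogene. Leaving out animal 2 moved the median difference of the 8 genes from -0.27 to -0.03, and leaving out any other animal gave no value below -0.33. Signs changed in at least 1 of the settings tried for NR3C1, THRB, PPARD and RXRA, and in 0 of 13 for ESR1, THRA, PPARA, ESRRA and ESRRG.

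**Figure D4:**
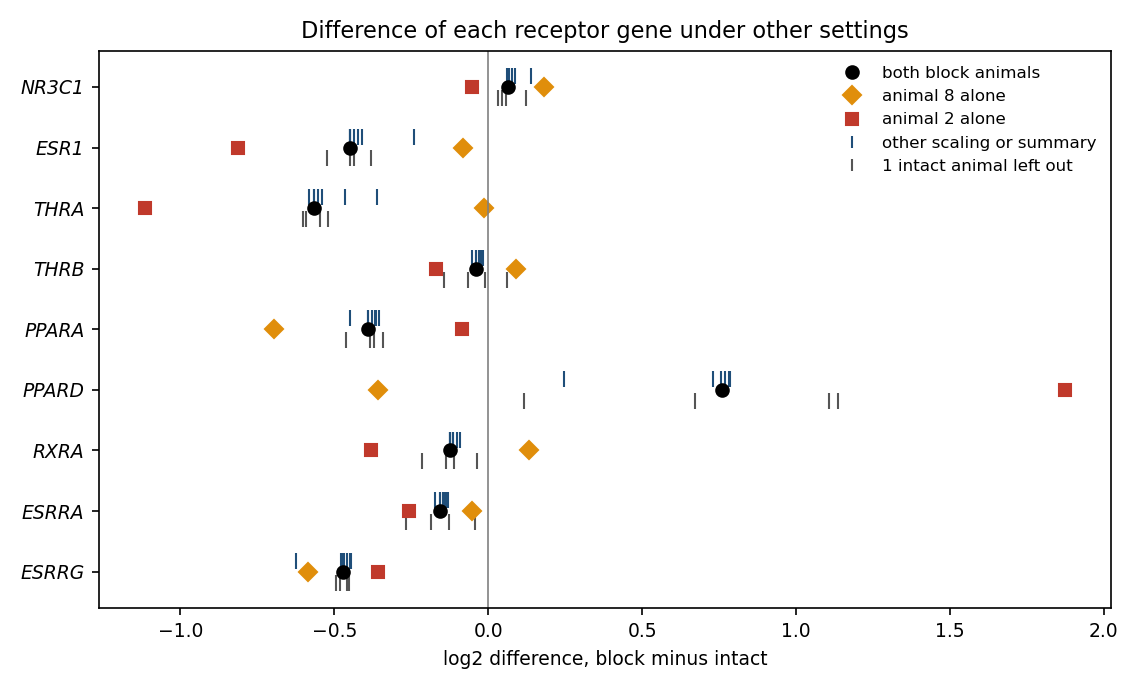
Log2 difference, block minus intact, of the main probe set of each receptor gene with both block animals (black), with animal 2 alone (squares) or animal 8 alone (diamonds) in the block group, with 1 intact animal left out (grey ticks) and with other scalings or summaries (blue ticks). The values of THRA run from -1.11 to -0.01 with the choice of block animal and those of ESRRG from -0.59 to -0.36.

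Ratios between receptors within the same array do not depend on the scaling of that array. The log2 ratio of ESRRG to NR3C1, centred on the intact mean, was 0.08, -0.14, 0.03 and 0.03 in the intact animals and -0.30 and -0.77 in animals 2 and 8. Both block hearts were below all intact hearts. The genes were chosen with their differences known and the ratio was not tested, so it adds no support to the low ESRRG signal. Nor does it tell which of the genes differed. The ratio of PPARA to NR3C1 (-0.20, -0.15, 0.20 and 0.15 against -0.03 and -0.88) and that of PPARA to RXRA (0.06, -0.02, 0.18 and -0.22 against 0.30 and -0.83) overlapped, with animal 8 the lowest in both.

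For the 4 receptors with the largest differences, the genes with the most similar signals were sought over the 6 arrays by the root mean square distance of log2 signals centred on the intact mean, among 11353 genes. For ESRRG these were SPG20 (distance 0.052) and H2AFY (0.055), which read 296 to 329 and 631 to 707 in the block hearts and 394 to 452 and 812 to 944 in the intact hearts. For THRA they were KIAA1191 (0.071) and RTCD1 (0.085), and for ESR1 DLEC1 (0.086) and FLJ12649 (0.086), low in animal 2 alone. For PPARA they were CAMTA1 (0.054) and FBXL10 (0.058), low in animal 8 alone. The median distance to all genes was 0.397 to 0.541. Genes were ranked over 6 points only, and the points of a profile share an array and its scaling.

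The genes around these receptors were described by 10 lists, with 176 genes in all and 135 tested by their brightest usable probe set. None passed an adjusted p of 0.05 (limma, lowest adjusted p = 0.241), which 0.0221% of all tested probe sets did, and at an unadjusted p under 0.05, 3 were higher and 12 lower, where 3.62% and 4.6% of all tested probe sets were. The difference was above 0 for 55 and below 0 for 80, with a median of -0.06. Both block hearts were above all intact hearts for 7 genes and below them for 19, where 8.62% and 9.46% of all tested probe sets were.

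**Figure D5:**
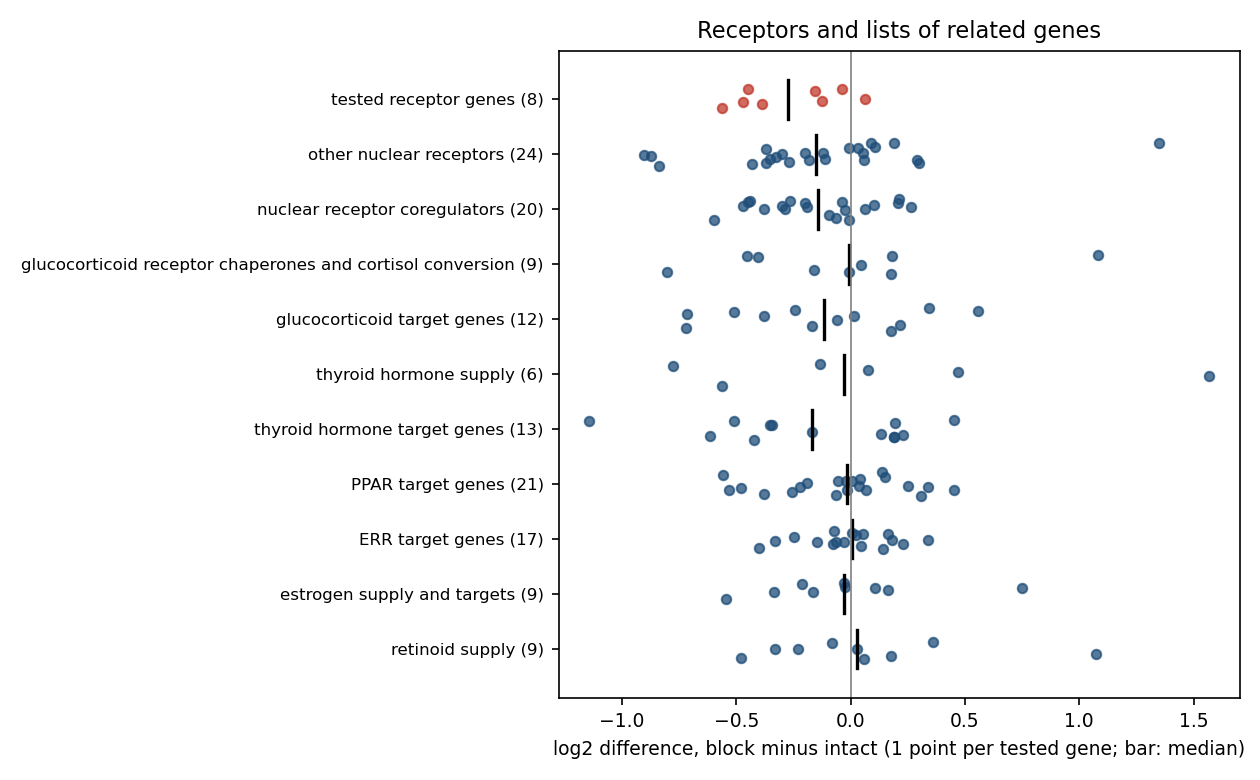
Log2 difference, block minus intact, of the 8 tested receptor genes (red) and of the tested genes of 10 lists of related genes (blue, number tested in brackets); each point is a gene and the bar is the median. List medians lie between -0.17 and 0.03, and the receptor genes' median is -0.27. The receptor genes were chosen with their differences known, and without block animal 2 their median is -0.03.

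Among 24 tested genes for other nuclear receptors, 9 were above and 15 below 0 (median -0.15). The clock repressor NR1D2 (REV-ERB beta) was at 0.546-fold (adjusted p = 0.354, limma) and its relative NR1D1 at 0.783-fold, while a dimmer NR1D2 probe set stood at 0.848-fold with overlap. The mineralocorticoid receptor NR3C2, RXRB and PPARG, which were set by name, were at 1.04-fold, 0.926-fold and 1.08-fold, and in each the groups overlapped. ESRRB, a relative of ESRRA and ESRRG, was dim. It read 42.5, 21.8, 47.5 and 54.9 in the intact animals and 17.0 and 28.5 in animals 2 and 8. Its fold was 0.559 with overlap between the groups (adjusted p = 0.645, limma).

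Of 20 coregulators, the proteins that receptors recruit to open or close chromatin, 5 were above and 15 below 0 (median -0.14), with 4 below and 1 above all intact hearts (9.46% and 8.62% of all tested probe sets). PPARGC1A, which encodes PGC-1 alpha, the coactivator of PPARA and of the estrogen-related receptors, read 566, 420, 633 and 1037 in the intact animals and 437 and 395 in animals 2 and 8, a fold of 0.661 with an adjusted p of 0.658 (limma). Animal 12 overlapped with the block hearts. PPARGC1B, LPIN1 and PPRC1, also coactivators of this pathway, were at 0.721-fold, 0.732-fold and 0.737-fold without overlap between the groups. NCOA2, a coactivator of steroid receptors, was at 1.15-fold.

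Targets of the fatty acid and mitochondrial receptors showed no common direction. Of 21 tested PPAR target genes 10 were above and 11 below 0 (median -0.01), and of 17 estrogen-related receptor target genes 9 were above and 8 below (median 0.01). In the first list, 3 genes were below all intact hearts, where 9.46% of all tested probe sets were. These genes of fatty acid oxidation were ACADVL at 0.679-fold, ACSL1 at 0.690-fold and HADHB at 0.717-fold (adjusted p = 0.478, 0.502 and 0.445, limma). CPT1A (1.24-fold) and HADHA (1.11-fold) of the same list overlapped between the groups. PDK4, which spares glucose when fat is burnt, ranged from 513 to 2302 in the intact animals and read 1373 and 2200 in animals 2 and 8. ANGPTL4 was not tested, being Present on 0 arrays. In the second list IDH3A (0.795-fold) and TFAM (0.841-fold) were below and NDUFS1 (1.13-fold) above all intact hearts.

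In the thyroid lists, DIO2, the deiodinase that makes active hormone inside cells, read 121, 123, 120 and 72.8 in the intact animals and 243 and 410 in animals 2 and 8. Both block hearts lay above all intact hearts, at 2.96-fold (log2 difference 1.57, standard error 0.29, adjusted p = 0.241, limma). Its other tested probe set, dimmer and looked at afterwards, read 15.4, 14.1, 9.39 and 12.7 against 3.35 and 20.6 and overlapped. SLC16A10, a transporter of thyroid hormone, was at 0.677-fold. Of 13 tested target genes 6 were above and 7 below 0 (median -0.17), with ADRB1, the beta-1 adrenoceptor, at 0.653-fold (adjusted p = 0.456, limma), SLC2A4, the insulin-regulated glucose transporter, at 0.702-fold, and RYR2, the calcium release channel, at 1.14-fold. The myosin genes MYH6 (1.37-fold) and MYH7 (0.782-fold), each with 1 probe set, overlapped between the groups. MYH6 read 3699, 7862, 7296 and 5425 in the intact animals and 10224 and 6199 in animals 2 and 8. MYH7 was far dimmer, at 98.4, 198, 112 and 153 against 181 and 61.7. Whether each probe set reads only the myosin it is named for was not tested.

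Around the glucocorticoid receptor, 9 chaperone and cortisol conversion genes had a median of -0.01 and 12 target genes one of -0.12. FKBP4 and STIP1, co-chaperones of the receptor, were at 0.573-fold and 0.730-fold, and PTGES3 at 1.13-fold, each without overlap. FKBP5 and TSC22D3, which glucocorticoids induce, were at 1.13-fold and 1.01-fold with overlap. Among the targets, PER1 (0.608-fold) and KLF15 (0.768-fold) were below and ZBTB16 (1.47-fold) above all intact hearts, with adjusted p of 0.499, 0.652 and 0.472 (limma).

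Of the estrogen list, 3 of 9 tested genes were above and 6 below 0 (median -0.03), and CYP19A1, the aromatase, was at 0.685-fold on a dim probe set that was Present on 2 arrays. Of the retinoid list, 5 of 9 were above 0 (median 0.03). CYP26B1, which breaks down retinoic acid, read 15.3, 24.7, 14.9 and 19.7 in the intact animals and 34.7 and 42.7 in animals 2 and 8. Both block hearts lay above the intact range, at 2.11-fold (adjusted p = 0.477, limma).

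The summed signal of 6 tested macrophage marker genes out of 7 was 394 to 565 in the intact animals, 506 in animal 2 and 1075 in animal 8. That of 8 fibroblast markers was 11844 to 21728 in the intact animals and 14010 and 19842 in animals 2 and 8, within the intact range. That of 7 endothelial markers was 3020 to 3742 and 2977 and 3820. Of the other lists, 3 of 4 erythroid genes were found, with sums of 5652 to 16190 in the intact animals and 22453 and 16075 in animals 2 and 8. The adipocyte sums were 1048 to 5114 against 5219 and 3368, those of smooth muscle and pericytes 4503 to 5871 against 5510 and 6148, and those of T lymphocytes 377 to 581 against 431 and 662. Most of the adipocyte sum was FABP4, at 653 to 3845 in the intact animals and 4705 and 2989 in animals 2 and 8. Of the 5 tested adipocyte genes, 2 were above and 3 below 0, with a median log2 difference of -0.16. The nerve and Schwann cell markers summed to 29.3 to 95.9 against 15.97 and 107. The part of these cells in the receptor values was not tested.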

How the data were processed

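Left ventricular RNA of 6 cynomolgus monkeys (100 ng of total RNA per array, from at least 50 mg of tissue) was measured on 1 rhesus array each. The authors extracted the signals with MAS5 (version not given in the sources used here). The deposited workbook lists for every probe set an intensity (the linear MAS5 signal), a Present, Marginal or Absent call, the unadjusted p-value behind that call, and a log2 value that the authors had normalized to the median of each array and then to that of the intact hearts. A further deposited table repeats the intensity values. Columns giving the number of probe pairs (6, 1 per array) were set aside.

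Signals were multiplied to a common 2% trimmed mean (2% off each end) and log2 was taken; control probe sets (158) were left out. Probe sets Present on at least 2 arrays were fitted in R 4.3.3 by the lmFit and eBayes functions of limma 3.58.1, the variance being allowed to follow the mean. Tests were 2-sided, p was adjusted by Benjamini-Hochberg over all 22577, and the script was tested on simulated data. Figures were drawn with matplotlib 3.10.9. Single measures per array were compared by an exact permutation test over 15 splits. The samples are 1 animal each. The number of arrays limits the precision.

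A gene was named by the design name or, failing that, the gene symbol, and is represented by its brightest probe set among those Present on at least 2 arrays. All 9 symbols are in the cynomolgus RefSeq gene table, which was used for names only. Named from each list were genes with an adjusted p under 0.05, up to 4 with the largest differences among those without overlap, and 10 set by name. ESRRB was looked at afterwards, as a relative of ESRRA and ESRRG. The members and lists were chosen with earlier results of these data known. Other scalings, an offset of 32, other detection filters, other variance settings, another summary over probe sets, the ratio of arithmetic means, and each animal left out were tried. Some genes of the lists are not reported here and were left out of their counts.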

Additional observations from a re-analysis of the deposited data

Results flagged for a closer look

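Of 51 member and named gene values checked, 2 had 1 intact animal that stood apart from the other 3 by a larger share of the group's range than Dixon's 95% criterion for 4 samples allows, which chance alone gives in about 1 of 20 groups. For NR3C1, animal 14 read 2.20 on the probe set 3220 bases 5′ of the brightest one, against 19.9 to 25.4 in the other intact animals. For DIO2, animal 14 read 72.8 against 120 to 123, while the block animals read 243 and 410.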

How the results depend on the processing

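The median log2 difference of the 8 tested receptor genes was -0.27 and ran from -0.33 to -0.03 with 1 animal left out, being -0.034 without block animal 2. Of 116 values of single receptor genes under other settings, 103 moved by less than the replicate spread and 13 by more; of these, 10 came from leaving out a block animal, 2 from the offset of 32 (ESR1 at -0.24 and THRA at -0.36) and 1 from averaging both ESRRG probe sets (-0.62). No gene of the 10 lists passed the adjusted threshold under any alternative, but at an unadjusted p under 0.05 the 15 became 4 with the authors' normalized values. The 5 probe sets of the whole array that passed became 8 with the offset of 32, 0 with quantile normalization, 0 with the authors' normalized values, 0 without a variance trend and 0 to 4 with 1 animal left out; the cause was not tested. Without a detection filter the probe sets with an unadjusted p under 0.05 rose from 1855 to 3618, more being tested. The scalings moved the median of all tested probe sets by at most 0.02. No paired analysis was possible because the groups share no replicate number. Signals near background bound THRA, THRB, ESR1 and PPARD, and the block group is 2 arrays.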
